A study of Mus musculus with 9 samples.

Results

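Chromatin accessibility was examined at 6 genes that mark the primed, post-implantation epiblast: Otx2, Fgf5, Pou3f1, Zic2, Zic5 and Foxd3. The genes were given by name, and all 6 were found among the 22367 protein-coding genes of the annotation. Peaks of all 9 ATAC-Seq libraries were merged into 210151 regions where they shared at least 1 bp, and those lying from 20 kb upstream of the transcription start site (TSS) to 20 kb past the end of the gene (TTS) were assigned to it. This gave 52 distinct regions, of which 12 lay in a promoter (the 3 kb upstream of any annotated TSS of the gene). In ATAC-Seq the Tn5 transposase inserts adapters where DNA is open, so that the pile of sequenced tags over a position measures how accessible it was.

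The libraries followed mouse embryonic fibroblasts (MEFs) that carried an IRES-EGFP insertion at Oct4 and were infected with retroviral pMXs vectors for Oct4, Sox2, Klf4 and c-Myc, then cultured without feeders in medium with serum replacement, LIF, ascorbic acid, bFGF and CHIR99021. Of the 7 time-course libraries, D0 and D3 were unsorted MEFs and cells at day 3, D6T- and D9T- were Thy-1-negative cells of days 6 and 9, D12S+ and D16S+ were SSEA-1-positive cells of days 12 and 16, and iPSCs were labelled as completely reprogrammed. The other 2 libraries were Thy-1-negative day 6 cells after siRNA against the genes of histone H3.3 (D6_siH3.3) or after non-targeting siRNA (D6_siNT). Every condition had 1 library, so no difference between conditions has a replicate check and no test between them was made, and in a mixed population fewer open cells and less opening per cell cannot be told apart.

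Otx2, Pou3f1 (also called Oct6), Zic2, Zic5 and Foxd3 encode transcription factors, and Fgf5 encodes a secreted fibroblast growth factor. When naive pluripotent cells move to the primed state, Otx2 and Pou3f1 rise and act with Oct4 at a new set of enhancers, Fgf5 becomes the usual marker of the change, and Zic2 and Foxd3 take part in the regulation of enhancers in the primed cells. Several of these factors are used again in the nervous system and the neural crest.

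Levels are given as the highest pileup in a region per 1000000 total tags of the library (CPM), and the intervals are exact 95% Poisson intervals that cover counting error only. Total tags ran from 13213117 in D9T- to 31714845 in D0, and the lowest pileup that was called ran from 7 tags (0.530 CPM, D9T-) to 11 tags (0.347 CPM, D0). A region that was not called lay below this floor or stayed above it over fewer than 200 bp, and a fold written as at least a value is taken against the floor and holds as a bound where the uncalled pileup stayed below it. The libraries also differed as a whole: over the 12307 regions called in all 9, the median ran from 0.883 CPM in D0 to 3.41 in D6T-, and was 1.98 in D3 and D16S+, 1.36 in D9T- and 1.05 in iPSCs. A fold divided by the change of this median is called scaled below. As a check of the labels, promoters were called at 10 of 12 fibroblast genes in D0 and 7 of 12 in iPSCs, and at 4 of 11 naive pluripotency genes in D0 and 10 of 11 in iPSCs. Over all protein-coding genes the share was 59.9% in D0 and 65.2% in iPSCs, so that the fibroblast count in iPSCs lay near it.

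The sequences of 8 regions are printed first because the differences between libraries turned on them: the Zic2 promoter, a late region upstream of Zic5, the strongest region outside the promoter of Fgf5, Otx2, Pou3f1 and Foxd3, and the strongest late region of Fgf5 and Otx2. Each is the 200 bp around the strongest summit, on the + strand of mm9 (NCBIM37), in lower case, with the matches to 8 searched motifs in capitals. The Zic2 promoter region (chr14:122873378-122873577), 1.13 kb upstream of the TSS, held 1 CACCC match in this window and 15 CpG dinucleotides. The region in the first intron of Fgf5, 1.76 kb from the TSS (chr5:98684868-98685067) held CAGCAGG, the core of a Zic site, at 2 places and 1 CACCC match (bound by Klf factors). The region 13.8 kb past the end of Fgf5 (chr5:98719704-98719903) held an AP-1 match (TGANTCA) and a Tcf/Lef match (CTTTGAT).
Zic2 promoter: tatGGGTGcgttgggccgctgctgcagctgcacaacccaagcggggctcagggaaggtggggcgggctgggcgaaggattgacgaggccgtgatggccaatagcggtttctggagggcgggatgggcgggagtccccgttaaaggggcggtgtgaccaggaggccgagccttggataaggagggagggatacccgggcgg
Fgf5 first intron: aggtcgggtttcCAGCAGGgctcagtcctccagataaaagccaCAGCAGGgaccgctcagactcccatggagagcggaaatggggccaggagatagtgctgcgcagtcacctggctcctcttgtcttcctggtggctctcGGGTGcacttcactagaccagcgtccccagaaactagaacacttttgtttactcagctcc
Fgf5 downstream: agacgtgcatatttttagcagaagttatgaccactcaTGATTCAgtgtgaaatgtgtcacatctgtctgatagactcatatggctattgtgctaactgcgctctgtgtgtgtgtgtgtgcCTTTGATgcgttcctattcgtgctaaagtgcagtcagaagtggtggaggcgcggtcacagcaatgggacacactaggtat
The regions of 3 further late openings lay downstream of Otx2 (chr14:49274293-49274492), upstream of Zic5 (chr14:122867246-122867445) and downstream of Foxd3 in an exon of the non-coding gene Gm12682 (chr4:99337034-99337233). The first 2 of these held none of the 8 motifs, and the third held a Sox match (CATTGT), a Zic match and 2 CACCC matches.
Otx2 downstream: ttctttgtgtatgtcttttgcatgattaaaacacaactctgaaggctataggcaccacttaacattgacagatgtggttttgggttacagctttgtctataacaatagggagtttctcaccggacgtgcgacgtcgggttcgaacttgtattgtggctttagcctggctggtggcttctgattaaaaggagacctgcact
Zic5 upstream: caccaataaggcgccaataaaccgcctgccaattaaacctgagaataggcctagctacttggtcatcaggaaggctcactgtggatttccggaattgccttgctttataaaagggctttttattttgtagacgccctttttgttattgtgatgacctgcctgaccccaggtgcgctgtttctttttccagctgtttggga
Foxd3 downstream: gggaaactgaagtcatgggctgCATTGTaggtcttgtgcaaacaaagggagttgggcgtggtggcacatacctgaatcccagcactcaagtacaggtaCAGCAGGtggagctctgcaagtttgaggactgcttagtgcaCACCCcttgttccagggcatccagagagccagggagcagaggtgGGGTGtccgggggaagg
In CPM, the strongest regions outside the promoters of Otx2 and Pou3f1 were early ones. They lay 12.1 kb upstream of Otx2 (chr14:49299312-49299511) and 7.13 kb downstream of the Pou3f1 TSS (chr4:124341926-124342125). Divided by the median of the shared regions, the late region downstream of Otx2 was higher (1.04 in iPSCs) than the early one (0.893 in D0). The early Otx2 region held 1 AP-1 and 1 Sox match, and the Pou3f1 region held 2 AP-1 matches and 1 CACCC match.
Otx2 upstream: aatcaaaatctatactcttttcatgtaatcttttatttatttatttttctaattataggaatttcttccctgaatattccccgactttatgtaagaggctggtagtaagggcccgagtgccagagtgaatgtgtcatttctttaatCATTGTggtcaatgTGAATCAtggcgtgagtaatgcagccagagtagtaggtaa
Pou3f1 downstream: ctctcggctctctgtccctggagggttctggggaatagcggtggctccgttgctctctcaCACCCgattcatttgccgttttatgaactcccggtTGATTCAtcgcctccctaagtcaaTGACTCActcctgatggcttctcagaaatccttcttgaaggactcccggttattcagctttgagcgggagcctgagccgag

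Zic2 and Zic5, zinc finger genes transcribed away from each other on chromosome 14, showed the highest late levels. Zic2 (ENSMUSG00000061524.7) lies at chr14:122874604-122879074 on the + strand and Zic5 (ENSMUSG00000041703.7) at chr14:122856017-122864899 on the - strand. Their windows overlapped and shared 7 of 12 regions, so that the genes are not independent observations. The Zic2 promoter region was 3352 bp wide and spanned the TSS. It reached 0.410 CPM in D0 (13 tags), 0.562 in D3 and 1.17 in D6T-, was not called in D9T-, and reached 2.61 in D12S+, 3.21 in D16S+ (68 tags) and 1.66 in iPSCs. In CPM, D12S+ and D16S+ stood above all other libraries. D16S+ was 7.84-fold above D0 (95% interval of the ratio 4.29 to 15.5), or 3.49-fold when scaled, and 2.75-fold above D6T- (1.72 to 4.54), or 4.73-fold when scaled. It was also 1.94-fold above iPSCs (1.31 to 2.90), a difference that was 1.03-fold when scaled.

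The promoter region of Zic5, 2593 bp wide with its summit 1.49 kb inside the gene in coding sequence, varied less. It reached 0.757 CPM in D0, 0.628 in D3, 0.888 in D6T-, 1.19 in D12S+, 1.79 in D16S+ and 0.790 in iPSCs, and was not called in D9T-. D16S+ was 2.37-fold above D0 (1.39 to 4.13) but 1.06-fold when scaled. A further region 2.45 kb upstream of the Zic5 TSS was not called in D0, D3, D6T- or D9T-. Its level was 0.511 CPM in D12S+, 1.32 in D16S+ and 0.564 in iPSCs, so that D16S+ stood 2.59-fold above D12S+ (1.19 to 6.23). In D9T- the sole region called around either gene lay in an intron of Zic2, at 0.681 CPM (9 tags). A cluster of 3 regions beyond the end of Zic5, 12.0 to 15.5 kb from its TSS, was called in D12S+, D16S+ and iPSCs at 0.489 to 1.31 CPM, and each of the 3 was also called in 1 earlier time-course library at 0.430 to 0.561 CPM.

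Fgf5, the growth factor gene, held the region with the highest level of all 52. Fgf5 (ENSMUSG00000029337.1) lies at chr5:98683203-98706049 on the + strand, and 7 regions fell in its window. The region 13.8 kb past its end reached 0.504 CPM in D0 (16 tags), 1.89 in D3, 3.37 in D6T- (72 tags), 2.27 in D9T- and 0.965 in D12S+, and was not called in D16S+ or iPSCs. Both siRNA libraries stood at 1.93 CPM. The early Thy-1-negative libraries were thus the highest and the last 2 of the time course had no call. D6T- was 6.67-fold above D0 (3.84 to 12.3) and at least 8.95-fold above iPSCs, and these folds were 1.73 and at least 2.76 when scaled. A second region, 7.21 kb past the end, was called in D0 at 1.39 CPM, in D3 at 1.26, in D6T- at 1.73, in D12S+ at 1.31 and in D16S+ at 0.803, and not in iPSCs.

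The first intron of Fgf5 ran the other way. Its region was not called in D0, D3, D6T- or D9T-, nor in either siRNA library, and reached 1.48 CPM in D12S+ (26 tags), 1.75 in D16S+ (37 tags) and 1.17 in iPSCs (31 tags). D16S+ was at least 5.04-fold above D0 and at least 4.67-fold above D6T- (at least 2.24-fold and 8.04-fold when scaled). In iPSCs it was the 1 region of 7 that was called (14.3%, against 27% of all merged regions). The Fgf5 promoter region, with its summit in the 5′ UTR, reached 0.410 CPM in D0, 0.628 in D3, 1.64 in D6T-, 0.852 in D12S+ and 1.18 in D16S+, and was not called in D9T- or iPSCs. D16S+ was at least 3.14-fold above iPSCs there, and at least 1.67-fold when scaled.

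**Figure D1:**
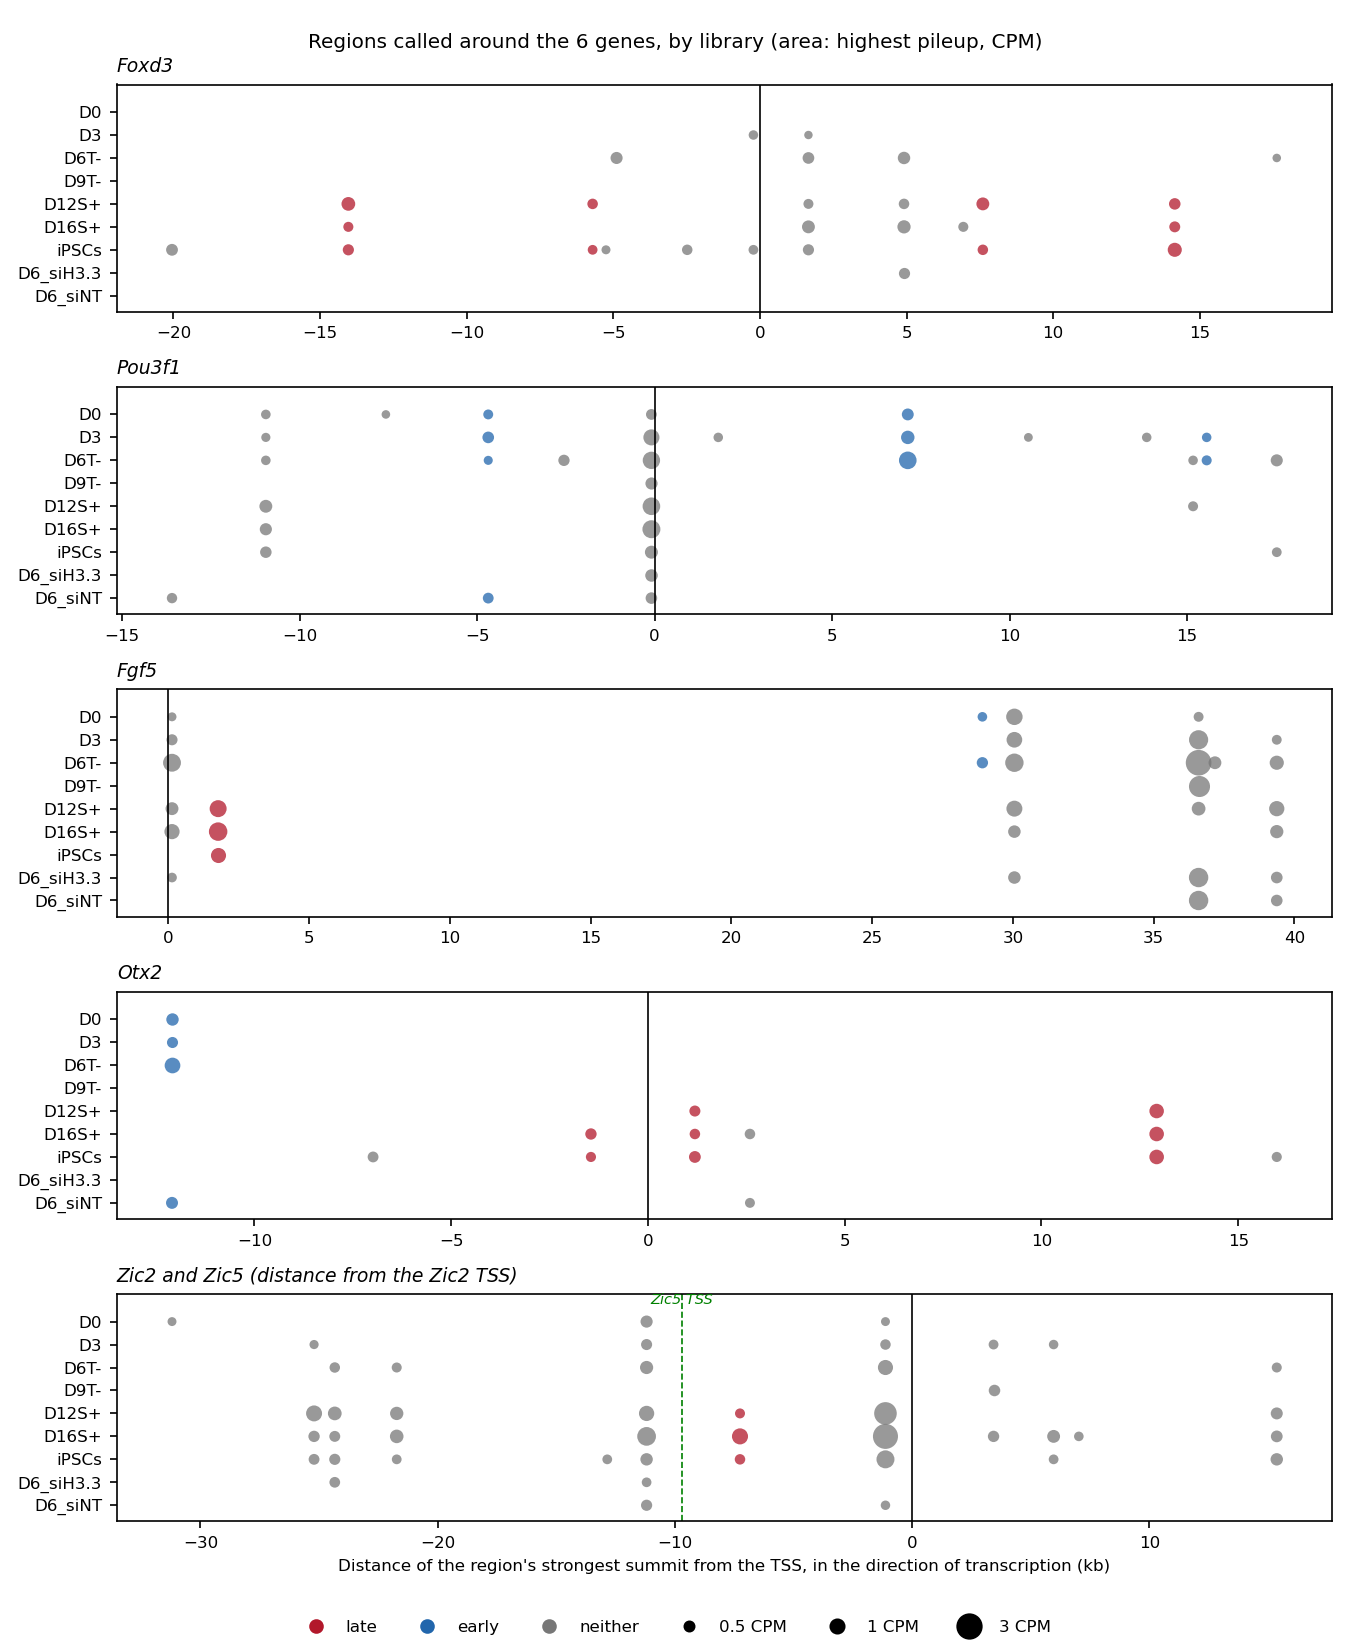
Regions called around the genes in each library. The x axis gives the distance of a region's strongest summit from the TSS of the gene record in kb, each row is a library, the area of a point is the highest pileup in CPM, and colours mark late, early and other regions. The intronic region of Fgf5 appears in D12S+, D16S+ and iPSCs, and the downstream region of Fgf5 has its largest point in D6T- at 3.37 CPM.

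Otx2, a homeodomain factor, had different regions called early and late. Otx2 (ENSMUSG00000021848.9) lies at chr14:49277354-49287319 on the - strand with 7 annotated TSSs, and 7 regions fell in its window. The region 12.1 kb upstream of the outermost TSS reached 0.788 CPM in D0 (25 tags), 0.628 in D3 and 1.26 in D6T- (27 tags), and was not called in any later library of the time course. It was the sole Otx2 region called in D0, D3 and D6T-. The region beyond the 3′ end, 12.9 kb from the TSS, reached 1.08 CPM in D12S+, 1.09 in D16S+ and 1.09 in iPSCs (29 tags) and was not called in D0, D3, D6T- or D9T-. The 3 late levels were within counting error of each other in CPM, while iPSCs stood 1.89-fold above D16S+ when scaled. iPSCs were at least 3.15-fold above D0, or at least 2.64-fold when scaled. D16S+ was at least 3.13-fold above D0, but at least 1.39-fold when scaled. At the upstream region D6T- was at least 3.355-fold above iPSCs, but at least 1.04-fold when scaled. There D0 was at least 2.095-fold above iPSCs, or at least 2.5-fold when scaled.

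At the Otx2 promoters, 3 regions lay close to alternative TSSs. The one 1.19 kb inside the gene was called at 0.625 CPM in D12S+, 0.567 in D16S+ and 0.715 in iPSCs. The one 1.45 kb upstream was called at 0.661 CPM in D16S+ and 0.527 in iPSCs. The third, in a UTR exon, was called at 0.567 CPM in D16S+ and 0.505 in D6_siNT. No Otx2 region was called in D9T- or D6_siH3.3, where 16% and 20.6% of all merged regions were. Because different regions gave the highest value at the ends of the time course, the highest level in the Otx2 window hid the exchange: it was 0.788 CPM in D0 and 1.09 in iPSCs, a ratio of 1.38 (0.783 to 2.46).

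Pou3f1, a POU domain factor with a single exon, differed from the other genes in that its promoter was called in all 9 libraries. Pou3f1 (ENSMUSG00000078236.3) lies at chr4:124334896-124337899 on the + strand, and 13 regions fell in its window. The promoter region was 2377 bp wide and reached 0.599 CPM in D0, 1.32 in D3, 1.54 in D6T-, 0.757 in D9T-, 1.59 in D12S+, 1.65 in D16S+ and 0.865 in iPSCs. D16S+ was 2.76-fold above D0 (1.54 to 5.11), or 1.23-fold when scaled. The siRNA libraries stood at 0.803 (D6_siH3.3) and 0.689 CPM (D6_siNT).

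Around the Pou3f1 promoter more regions were called in D3 and D6T- than in the later libraries. The one 7.13 kb downstream of the TSS reached 0.725 CPM in D0, 0.926 in D3 and 1.59 in D6T- (34 tags) and was called in no other library. D6T- was at least 3.74-fold above D16S+ and at least 4.22-fold above iPSCs, and these were at least 2.17-fold and 1.30-fold when scaled. The region 4.69 kb upstream was called at 0.504 CPM in D0, 0.695 in D3 and 0.421 in D6T-, and at 0.597 in D6_siNT. The region 10.9 kb upstream was called in D0, D3, D6T-, D12S+, D16S+ and iPSCs at 0.430 to 0.852 CPM. Of the 13 regions, 8 (61.5%) were called in D3 and 8 (61.5%) in D6T-. The later counts were 3 (23.1%) in D12S+, 2 (15.4%) in D16S+ and 3 (23.1%) in iPSCs. Over all merged regions the shares were 48.2%, 61.7%, 25%, 22.3% and 27%, so that outside D3 the counts lay near this background.

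Foxd3, a forkhead factor, had the lowest window level of the 6 genes in D3, D6T-, D12S+ and D16S+, but not in iPSCs. More of its regions were called in iPSCs than in any other library. Foxd3 (ENSMUSG00000067261.3) lies at chr4:99322990-99325362 on the + strand, and 13 regions fell in its window. No region was called in D0 or D9T-, 2 were called in D3, 4 in D6T-, 6 in D12S+, 5 in D16S+ and 9 in iPSCs (69.2%). Of all merged regions 36.5% were called in D0, 48.2% in D3, 61.7% in D6T- and 16% in D9T-. In D12S+, D16S+ and iPSCs these shares were 25%, 22.3% and 27%. The region over its coding sequence reached 0.364 CPM in D3, 0.701 in D6T-, 0.511 in D12S+, 0.850 in D16S+ and 0.640 in iPSCs. The region 14.1 kb downstream of the TSS reached 0.681 CPM in D12S+, 0.614 in D16S+ and 1.02 in iPSCs (27 tags). iPSCs were at least 2.93-fold above D0 there, or at least 2.46-fold when scaled. The promoter was called in D3 at 0.463 CPM (14 tags) and in iPSCs at 0.564 (15 tags), where the floors were 0.331 and 0.376 CPM.

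**Figure D2:**
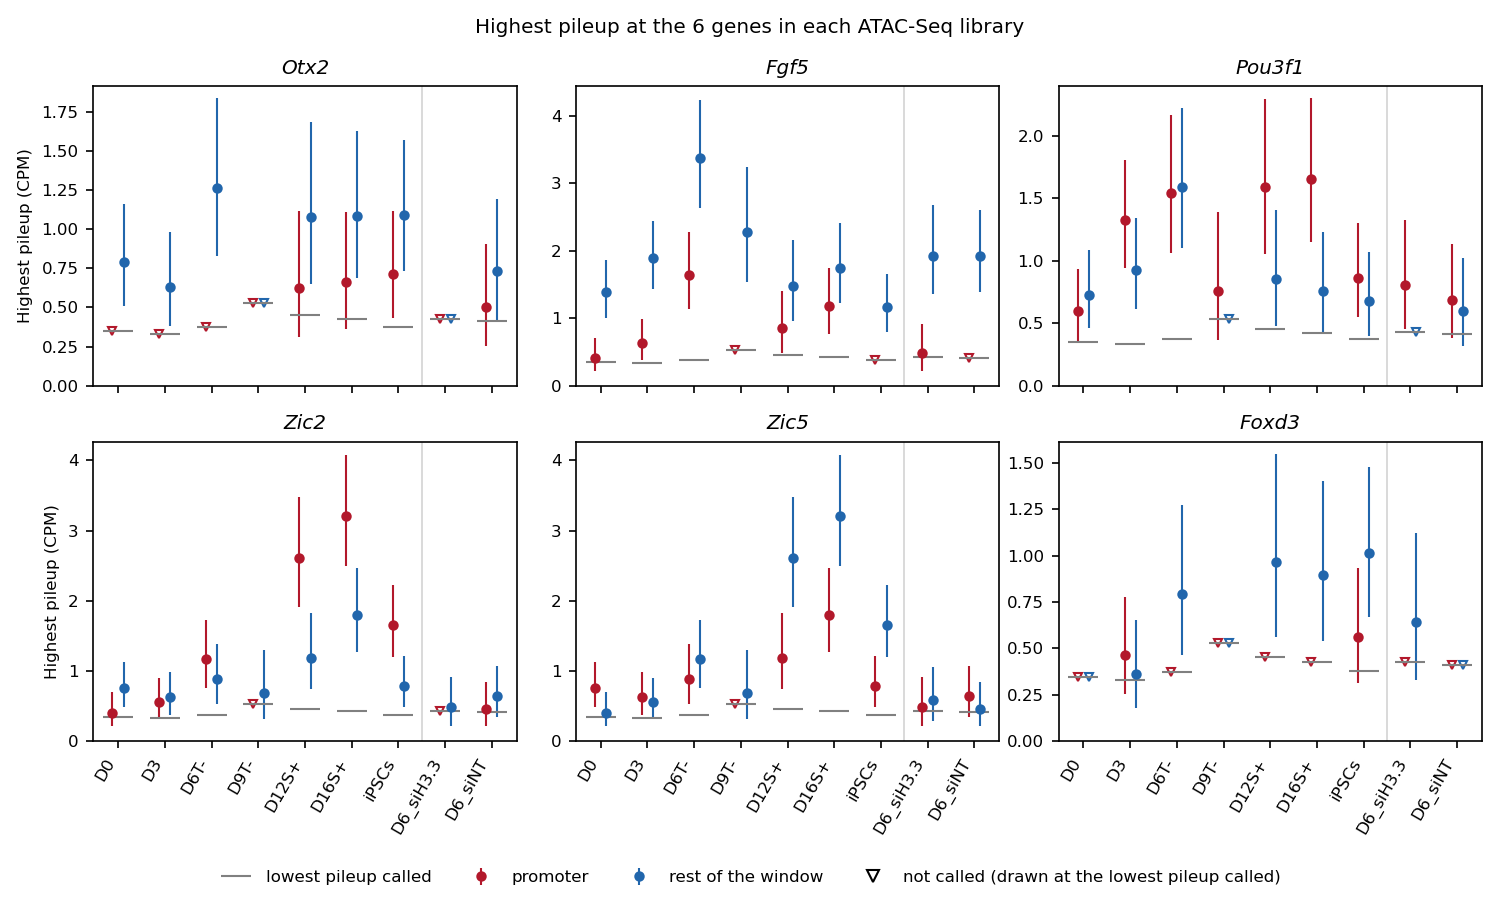
Highest pileup (CPM, y axis) of each gene in each library (x axis), in the promoter and in the rest of the window, with exact 95% Poisson intervals. Grey bars are the lowest pileup called in the library. Open triangles at that height mark a promoter, or a rest of the window, with no region called. The Zic2 promoter stands highest in D16S+ at 3.21 CPM, and Foxd3 has triangles for both kinds in D0, D9T- and D6_siNT.

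The number of genes with a called promoter was 4 of 6 in D0, 5 in D3, 4 in D6T-, 1 in D9T-, 5 in D12S+, 5 in D16S+ and 5 in iPSCs, and 3 and 4 in D6_siH3.3 and D6_siNT. Over all protein-coding genes the promoter was called in 59.9% in D0, 68.6% in D3, 68.8% in D6T-, 52.2% in D9T-, 64.2% in D12S+, 64.2% in D16S+, 65.2% in iPSCs, 55.9% in D6_siH3.3 and 56.4% in D6_siNT. With 6 genes the counts lay near this background outside D9T-, where Pou3f1 was the 1 gene called. D9T- was the shallowest library. Any region in the window was called for 5 of 6 genes in D0, 4 in D9T-, 5 in each siRNA library and 6 in the other 5 libraries. The background for any region in the window was 83.2% in D0, 87.2% in D3, 88.9% in D6T-, 74.2% in D9T-, 83.3% in D12S+, 83.4% in D16S+, 83.2% in iPSCs, 77.7% in D6_siH3.3 and 77.6% in D6_siNT.

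Counted by region, the share called at these genes lay below the background before day 12 and above it from day 12 on. Of the 52 regions, 13 were called in D0 (25.0%, against 36.5% of all merged regions), 20 in D3 (38.5% against 48.2%), 24 in D6T- (46.2% against 61.7%) and 3 in D9T- (5.77% against 16%). In D12S+ 23 were called (44.2% against 25%), in D16S+ 25 (48.1% against 22.3%) and in iPSCs 27 (51.9% against 27%). D6_siH3.3 had 8 (15.4% against 20.6%) and D6_siNT had 9 (17.3% against 20.2%). Of the 25 regions called in D16S+, 8 (32.0%) were not called in iPSCs, near the 28.4% of all regions called in D16S+.

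The highest level in the window was below that of all genes in every library but iPSCs. Its median over the 6 genes was 0.757 CPM in D0 against 0.914 over all genes, 0.628 against 1.72 in D3 and 1.22 against 2.99 in D6T-. It was 1.53 CPM against 1.76 in D12S+, 1.70 against 1.75 in D16S+ and 1.13 against 1.02 in iPSCs, so that the ratio to all genes was 0.828 in D0, 0.365 in D3, 0.406 in D6T-, 0.562 in D9T-, 0.871 in D12S+, 0.973 in D16S+ and 1.11 in iPSCs. Between D0 and D6T- 3 genes (Fgf5, Pou3f1 and Foxd3) were at least 2-fold higher in D6T-, where 76% of all genes were, and when scaled none of the 6 was, against 1.13% of all genes. At least 2-fold higher in D16S+ than in D0 were 4 genes (Pou3f1, Zic2, Zic5 and Foxd3), against 45.8% of all genes, and when scaled none of the 6 was, against 3.73%. Zic2 and Zic5 both counted through the Zic2 promoter region, and Foxd3 was set against the floor of D0. In D0 the highest level at Zic2 and Zic5 lay in the Zic5 promoter region (0.757 CPM). Their window fold was therefore below that of the Zic2 promoter region alone. No gene of the 6 was at least 2-fold higher in D16S+ than in iPSCs, against 30.2% of all genes, nor in iPSCs than in D16S+, against 0.246%.

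**Figure D3:**
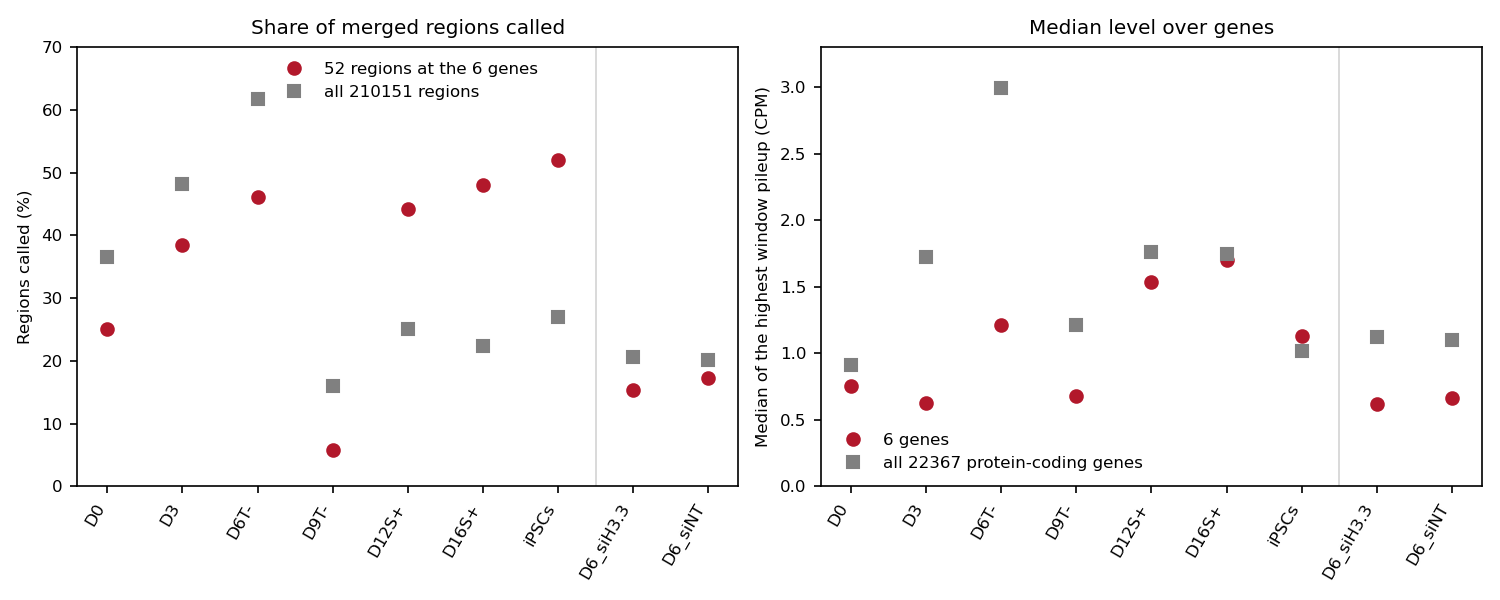
Left, the share of merged regions called (%, y axis) in each library (x axis) for the 52 regions at the 6 genes (circles) and all 210151 regions (squares). Right, the median of the highest window pileup (CPM) over the 6 genes and over all 22367 protein-coding genes. In the left panel circles lie above squares in D12S+, D16S+ and iPSCs, and in the right panel in iPSCs alone, at 1.13 against 1.02 CPM.

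To describe the exchange of regions, a late region was one called in at least 2 of D12S+, D16S+ and iPSCs and in none of D0, D3, D6T- and D9T-, and an early region was one called in at least 2 of D0, D3 and D6T- and in none of D12S+, D16S+ and iPSCs. These classes were chosen after the values were seen. By this rule 9 of the 52 regions (17.3%) were late, against 4.22% of all regions, and 5 (9.62%) were early, against 18.9%. Foxd3 held 4 of the late regions, Otx2 3, Fgf5 1, and Zic2 and Zic5 shared 1. Pou3f1 held 3 of the early regions, and Otx2 and Fgf5 1 each. The AP-1 match was found in 3 of the 5 early regions and 1 of the 9 late regions, and in 45.5% of all early and 5.31% of all late regions. CAGCAGG was found in 2 of the 9 late and none of the 5 early regions, and in 18.2% and 8.14% of all such regions.

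Of the 8 searched motifs, CACCC alone was found in most of the 52 regions. All motifs were searched on both strands in 200 bp around the strongest summit, and none contains another. The octamer ATTTGCAT, bound by POU factors such as Oct4 and Pou3f1, was in none of the 52 regions (1.71% of all regions), and the Otx motif TAATCC was in 4 (7.69% against 5.07%). CATTGT was in 3 (5.77% against 12.9%), CAGCAGG in 5 (9.62% against 9.85%), CTTTGAT in 2 (3.85% against 2.54%), TGANTCA in 9 (17.3% against 24.2%), the Tead motif GGAATG in 2 (3.85% against 15.2%) and the Klf motif CACCC in 30 (57.7% against 45.1%). The 52 regions had a median GC content of 56.0% and 6 CpG per 200 bp, against 50.0% and 2 for all regions. Most summits, 34 of 52, were intergenic, 10 lay in introns, 3 in coding sequence, 3 in UTRs and 2 in exons of non-coding genes. In the 1 kb around the TSS the GC content was 78.1% at Pou3f1, 73.2% at Zic2, 68.3% at Foxd3, 65.5% at Fgf5, 54.5% at Zic5 and 43.0% at Otx2, with a median of 54.8% over all protein-coding genes.

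D6_siH3.3 and D6_siNT asked whether lowering H3.3 at the start of reprogramming changed accessibility at day 6. The siRNA was given at day -2, and the paper describes the knockdown as transient and confined to the early time-point. Levels were compared at regions called in both libraries, which leaves out every region that either library lacked. The Fgf5 downstream region stood at 1.93 CPM in both (36 and 42 tags), a ratio of 1.00 (0.623 to 1.60). The Pou3f1 promoter stood at 0.803 CPM in D6_siH3.3 and 0.689 in D6_siNT, 1.17-fold (0.532 to 2.56), and the Zic5 promoter region at 0.482 and 0.643, where D6_siNT was 1.33-fold higher (0.537 to 3.49). These intervals leave room for changes of more than 1.5-fold either way. With a gene not called set at the floor, none of the 6 was at least 2-fold higher in D6_siH3.3 (0.563% of all genes). None was in D6_siNT (0.21%). Otx2 had no call in D6_siH3.3 (at least 1.71-fold higher in D6_siNT) and Foxd3 had none in D6_siNT. For these genes the fold is a lower bound and may exceed 2.

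Of the regions, 4 were called in both siRNA libraries. D6_siNT had 5 of 9 that D6_siH3.3 lacked, against 22.2% of all regions called in D6_siNT, and D6_siH3.3 had 4 of 8 that D6_siNT lacked, against 23.7%. Those called in D6_siNT alone included the region upstream of Otx2 at 0.735 CPM (16 tags) and the Zic2 promoter region at 0.459 CPM (10 tags). Those called in D6_siH3.3 alone included an Fgf5 region 7.21 kb past its end at 0.803 CPM (15 tags) and a Foxd3 region 4.91 kb downstream of its TSS at 0.643 CPM (12 tags). All these levels were less than 2-fold above the floor of the library without a call (0.429 CPM in D6_siH3.3, 0.413 in D6_siNT). D6T-, also Thy-1-negative at day 6 but with no siRNA in its label, had 24 of the 52 regions called, among them all 8 of D6_siH3.3 and 7 of the 9 of D6_siNT.

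**Figure D4:**
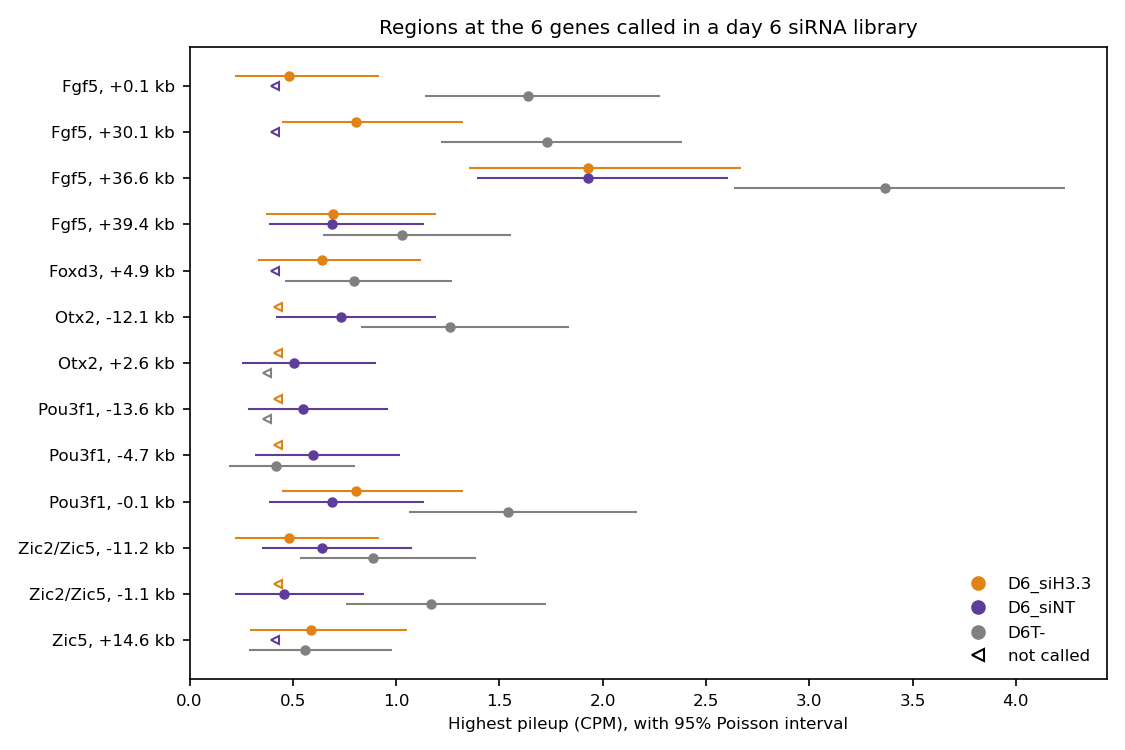
Highest pileup (CPM, x axis) in D6_siH3.3, D6_siNT and D6T- of the 13 regions called in a siRNA library (rows, with the distance from the TSS), with exact 95% Poisson intervals. Open triangles mark libraries without a call, at their floor. The intervals of the siRNA libraries overlap in the 4 regions called in both.

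Of 21 other genes of the primed state and its onset, taken as a companion list, 12 (57.1%, against 45.8% of all genes) were at least 2-fold higher in D16S+ than in D0 and none (against 2.53%) at least 2-fold lower, and when scaled none of the 21 was at least 2-fold higher, against 3.73%. The largest of these folds in window level were those of Lef1 (0.662 CPM in D0 and 2.69 in D16S+), a mediator of Wnt signalling, and Pim2 (0.599 and 2.27), a kinase gene. Tcf15, a basic helix-loop-helix factor (0.536 and 1.98), Fgf8, a growth factor (0.378 and 1.28), and Wnt8a, a Wnt ligand (0.631 and 1.70), followed. The list's median was 0.694 CPM in D0, 1.75 in D16S+ and 0.978 in iPSCs, beside 0.914, 1.75 and 1.02 over all genes. None of the 21 was at least 2-fold higher (0.563% of all genes) or lower (0.21%) in D6_siH3.3 than in D6_siNT, with a gene not called set at the floor. Neural genes, which share several of these factors, counted 5 of 10 at least 2-fold higher in D16S+ than in D0, genes of the germ layers 2 of 7, naive pluripotency genes 8 of 11 and fibroblast genes 2 of 12, with 2 of 12 fibroblast genes at least 2-fold higher in D0, against the same 45.8% and 2.53% of all genes. When scaled, these counts were 1 of 10, 0 of 7, 2 of 11 and 0 of 12 (3.73% of all genes), with 6 of 12 fibroblast genes higher in D0 (16.1% of all genes).

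Over the 9 libraries, the genes whose log2 window levels ran most like those of a member were found among 19639 to 19641 candidates, with Pearson's r given as a description. For Zic2 these were Erv3 (r = 0.990) and Hhla1 (0.981), and for Zic5 the same genes in the other order (0.983 for Hhla1, 0.981 for Erv3). For Pou3f1 they were 2010305A19Rik (0.990) and Klhl12 (0.988), and for Fgf5 Clvs1 (0.982) and Nell2 (0.982). For Foxd3 they were A330008L17Rik (0.974) and Slc5a7 (0.964), and for Otx2 Aoc2 and Aoc3 (0.959 both, with the same values in every library). All 9 points share the depth and overall level of their library, which every gene follows.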

How the data were processed

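The authors mapped 51 bp ATAC-Seq reads to mm9 with STAR (unique hits, at most 2 mismatches), removed duplicates with Picard and called peaks per library with MACS 2.1.0.20151222, without a control or local background, at a q cutoff of 0.05, with tags extended to 200 bp. The deposited pileup is a signal, unscaled for depth, the deposited fold enrichment is a ratio to an even spread of tags, and the deposited q-values are −log10. Here, peaks on chromosomes 1 to 19, X and Y were merged, and the highest pileup was divided by total tags (CPM). Folds use exact 95% intervals of counting error. PCR copies were removed without molecular identifiers. Genes came from GENCODE on the same build, and no peak passed a chromosome's end. Scripts ran in Python 3.11.15 with numpy, pandas, scipy and matplotlib, and passed 7 tests on simulated data. Members, lists and settings were chosen with earlier results of these data known. The rule for named genes took all 6 members, the 2 genes most like each and 5 companions. A gene of the companion list is not reported here. Alternatives were fewer peaks, other windows, promoters, merging and scales.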

Additional observations from a re-analysis of the deposited data

Results flagged for a closer look

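Peaks on the mitochondrial chromosome, outside the regions compared above, were present in every library. The highest mitochondrial pileup, taken over the whole chromosome, bounds the share of these tags at 3.55% of total tags in D0, 3.95% in D3, 10.2% in D6T-, 15.7% in D9T-, 9.28% in D12S+, 8.38% in D16S+, 6.37% in iPSCs, 8.52% in D6_siH3.3 and 8.48% in D6_siNT. With the bound taken off the total tags, 4 of the 6 genes were still at least 2-fold higher in D16S+ than in D0. Between the siRNA libraries 0 differed 2-fold, with a gene not called set at the floor.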

How the results depend on the processing

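Over the 9 libraries there were 36 gene promoters called, 49 gene windows called and 152 regions called. Promoters called were 22 where each library kept as many of its strongest peaks as the smallest has, 22 with the stronger 50% of peaks and 17 where a region's midpoint had to lie in the promoter, and regions called were 79 and 69 with these 2 sets of peaks. Of the 6 genes, 4 were at least 2-fold higher in D16S+ than in D0, 0 when scaled to shared regions and 2 with D3 in place of D0. Between the siRNA libraries the count of 0 became 2 at 1.5-fold, with Foxd3 higher and Otx2 lower in D6_siH3.3, both against a library without a call. Late regions were 9, and 18 (34.6% against 13.6% of all regions) where 1 late library was enough, and early regions were 5, and 1 (1.92% against 5.18%) with peak numbers made equal. The 55 pairs of a region and a motif became 32 in windows of 100 bp. Of the 12 highest promoter and other levels, 12 kept their highest time-course library by fold enrichment and 8 when scaled. The other alternatives left these totals within 1.5 times, tags without the mitochondrial maximum included. Of 108 counts for single libraries 38 moved further, 37 of them lower: windows called in D3 and in D6T- were 6 of 6, and 2 with peak numbers made equal, and those in D6_siNT were 5, and 1 with the stronger 50% of peaks. The 1 higher count was that of regions called in iPSCs, 27, and 41 where summits within 150 bp were joined. No paired analysis was possible because every condition had 1 library. Openings below the floor of a library were not detectable, and 18 of the 52 regions (34.6%, against 46.5% of all regions) were called in a single library.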
